A study of Mus musculus with 16 samples.

Results

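The genes of glycogen synthesis and breakdown in skeletal muscle are described here across age. There were 9 of them among the 21777 genes tested, chosen by name with earlier results of these data known. They were the breakdown genes Pygm, Phka1 and Phkg1, the synthesis genes Gyg, Ugp2, Gys1 and Gbe1, and the phosphatase-targeting genes Ppp1r3a and Ppp1r3c. In the scanner files 13 probes were assigned to a transcript of these genes, with 1 probe for each of 5 genes and 2 probes for each of Gyg, Gys1, Phkg1 and Ugp2. All 13 probes were well above background on all 16 arrays, so none of the 9 genes was lost to the filter on dim probes.

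Total RNA from the gastrocnemius, a calf muscle made up mostly of fast fibres, was hybridised to 1-colour Agilent arrays, with 1 array for each sample. The mice were females of the inbred strain C57Bl/6J, none of them treated, and 4 samples were taken at each of 4 ages: 3, 15, 24 and 29 months. The comparisons addressed how transcript levels in this muscle differ between young, middle-aged and old mice. Whether the samples of an age are from different animals is not stated in the labels, and the p-values therefore rest on a spread between samples that could be technical.

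The 3 and 15 month arrays lay on slide 1 and the 24 and 29 month arrays on slide 2, with each age in a slide row of its own. Ages 15 and 3 months, and likewise 29 and 24 months, could therefore be compared within a slide. For 24 and 29 against 3 months, slide and age cannot be told apart. Within each slide, slide row and age cannot be told apart either. Replicates 2 and 4 at 24 months and replicates 1 and 3 at 29 months stood apart from the rest, with array weights estimated by limma of 0.265 to 0.513 against 0.995 to 2.07 on the other 12 arrays. The 8 skeletal muscle markers, Acta1, Ckm, Mb, Actn2, Tnnc2, Mylpf, Casq1 and Ryr1, were well above background on all 16 arrays. In whole muscle, fewer cells of a type and less RNA per cell cannot be told apart.

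Glycogen is the store of glucose that muscle fibres draw on during contraction. It is built on a glycogenin primer by glycogen synthase and the branching enzyme from UDP-glucose, and it is broken down by glycogen phosphorylase, which phosphorylase kinase switches on when calcium and adrenaline signals reach the fibre. Protein phosphatase 1, held on the glycogen particle by targeting subunits, removes the phosphates and so turns breakdown off and synthesis on.

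The promoter sequences of the 3 genes that passed the test in at least 1 comparison, Phkg1, Ppp1r3a and Ppp1r3c, show what lies just upstream of their annotated starts. Each is the 250 bases before the start, from RefSeq on GRCm38.p6, read 5′ to 3′ on the minus strand: chr5:129879089-129879338 for Phkg1, chr6:14755275-14755524 for Ppp1r3a and chr19:36736605-36736854 for Ppp1r3c. Capitals mark matches to the following patterns. CANNTG is the E-box of any kind. CACGTG, which is also a CANNTG, is the E-box form bound by factors such as USF and CLOCK. The last is CTA, then any 4 bases, then TAG, a loose form of the site of the muscle factor MEF2 that leaves its middle bases free.
Phkg1: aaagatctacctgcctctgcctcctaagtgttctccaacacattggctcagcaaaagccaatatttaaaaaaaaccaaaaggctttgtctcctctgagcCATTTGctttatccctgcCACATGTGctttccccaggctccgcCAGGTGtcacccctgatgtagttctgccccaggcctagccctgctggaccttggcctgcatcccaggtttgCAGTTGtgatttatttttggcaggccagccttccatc
Ppp1r3a: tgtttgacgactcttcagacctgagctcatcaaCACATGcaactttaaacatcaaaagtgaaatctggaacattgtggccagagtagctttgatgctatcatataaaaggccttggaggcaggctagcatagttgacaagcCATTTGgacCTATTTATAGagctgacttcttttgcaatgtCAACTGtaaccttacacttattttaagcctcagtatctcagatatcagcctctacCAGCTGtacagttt
Ppp1r3c: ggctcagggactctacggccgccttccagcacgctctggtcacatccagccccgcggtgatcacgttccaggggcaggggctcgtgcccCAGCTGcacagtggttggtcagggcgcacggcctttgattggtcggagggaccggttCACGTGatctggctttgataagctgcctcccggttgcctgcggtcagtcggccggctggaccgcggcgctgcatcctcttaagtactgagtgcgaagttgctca
Matches were sought on both strands, and also for TGACGTCA, the cyclic AMP response element, and TGTTTAC, a FOXO site, neither of which was found in these windows of any of the 9 genes. A CANNTG match was present in all 9 genes and in 66.2% of 32526 RefSeq promoters of the same length. CACGTG was present in 1 of the 9, Ppp1r3c, against 6.04% of all promoters. The loose MEF2 form was present in Ppp1r3a and Phka1, 2 of the 9, against 3.22%. TGACGTCA and TGTTTAC were present in 1.56% and 3.17% of all promoters. These matches describe the letters only and do not show that a factor binds.

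Levels are given as log2 of a probe's brightness minus log2 of the 75th percentile of its array, so a difference of 1 is a doubling. Levels are compared between ages for the same probe and never between genes. A gene was called changed where its adjusted p, from a linear model fitted with limma across all genes with Benjamini-Hochberg adjustment, was under 0.05.

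Ppp1r3c rose early and stayed high. Its level was 2.75-fold higher at 15 than at 3 months, 2.29-fold higher at 24 months and 1.95-fold higher at 29 months. Phkg1, the catalytic subunit of phosphorylase kinase, was 1.48-fold lower at 29 than at 3 months, and Ppp1r3a, the other targeting subunit, was 1.31-fold lower at 24 months. The other 6 genes passed the test in no comparison.

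At 15 against 3 months 1 of the 9 genes was called, Ppp1r3c, where 0.978% of all genes tested were. At 24 against 3 months 2 of 9 were called, Ppp1r3c higher and Ppp1r3a lower, where 4.66% of all genes were. At 29 against 3 months 2 of 9 were called, Ppp1r3c higher and Phkg1 lower, where 14.6% of all genes were. The genes were chosen with earlier results of these data known, so none of these counts is read as particular to them. At 29 months calls were also frequent among all genes. Between 24 and 29 months none of the 9 genes was called by limma, and none had an unadjusted p under 0.05, where 1.91% of all genes were called and 15.3% had such a p. With a straight line in age fitted within slides none was called and 1, Ppp1r3c, had an unadjusted p under 0.05, where 0.634% of all genes were called and 10.9% had such a p.

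The median log2 change of the 9 genes was 0.10 at 15 against 3 months, -0.08 at 24 and -0.11 at 29 months, beside -0.01, -0.02 and -0.04 over all genes tested. Within each comparison the 9 changes ran in both directions. At 29 months the breakdown genes had a median of -0.34 with 3 of 3 below 0, and the synthesis genes a median of 0.32 with 3 of 4 above 0. At 24 months the medians were -0.23 and 0.23, with the same counts below and above 0. In both of these comparisons slide and age cannot be told apart. Within slides the medians of breakdown and synthesis genes were 0.005 and 0.12 at 15 against 3 months. They were -0.06 and -0.05 at 29 against 24 months. Among these 7 genes only Phkg1 was called, at 29 months, and the difference between the groups was not tested.

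**Figure D1:**
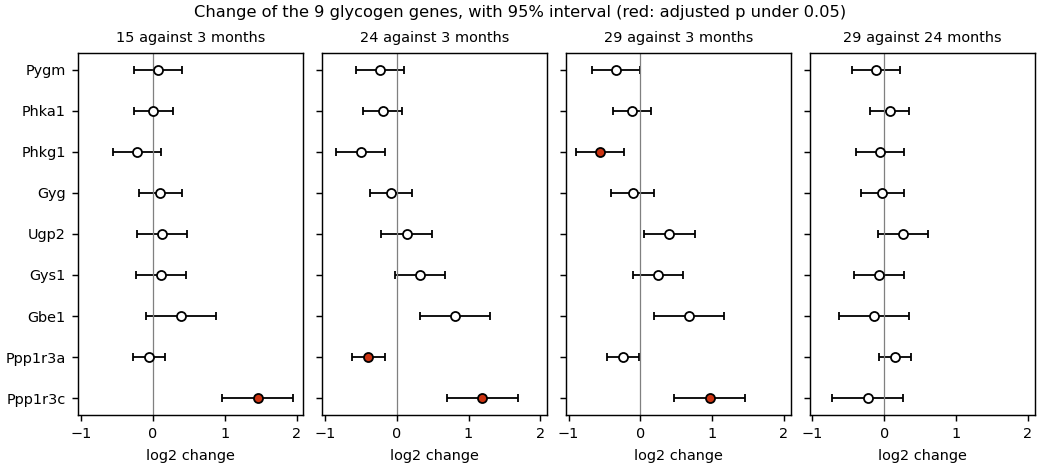
The log2 change of each of the 9 genes (rows) in 4 comparisons of ages (panels). Points are limma estimates, bars are 95% confidence intervals and red points have an adjusted p under 0.05; Ppp1r3c lies farthest to the right in the 3 comparisons with 3 months, at 1.46, 1.19 and 0.96, and no point is red between 24 and 29 months.

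Among the breakdown genes, Pygm encodes the muscle glycogen phosphorylase, which releases glucose units from glycogen. Its 4 arrays at 3 months read 8.72, 8.85, 9.01 and 8.85, and those at 15 months 9.13, 9.04, 9.03 and 8.54. At 24 months they read 8.58, 8.77, 8.89 and 8.28 and at 29 months 8.34, 8.34, 8.72 and 8.66. The means fell in the order 15, 3, 24 and 29 months, and the arrays of all neighbours in that order overlapped. From 3 to 29 months the difference was -0.34 (SE 0.16, 95% interval -0.68 to -0.01, adjusted p = 0.16), which did not pass.

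Phkg1 encodes the muscle gamma subunit of phosphorylase kinase, the catalytic subunit that phosphorylates and activates glycogen phosphorylase. Its level was 6.05, 6.16, 6.25 and 6.04 on the arrays of 3 months and 6.09, 6.02, 5.97 and 5.54 on those of 15 months. It was 5.55, 5.63, 6.00 and 5.29 at 24 months and 5.31, 5.46, 5.72 and 5.75 at 29 months. All arrays of 24 and of 29 months lay below all arrays of 3 months, and the 15 month arrays overlapped those of every other age. The difference at 29 against 3 months was -0.56 (SE 0.16, adjusted p = 0.0266), and at 24 months it was -0.50 (SE 0.16, adjusted p = 0.0838), which did not pass. Within slides the differences were -0.22 at 15 against 3 months (adjusted p = 0.735) and -0.06 at 29 against 24 months (adjusted p = 0.908).

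The second probe of Phkg1 gave -0.60 at 29 against 3 months and -0.54 at 24 months, close to the probe used for the test. The call at 29 months was lost with arrays scaled to their median (adjusted p = 0.125), with no filter on dim probes (0.0598) and without the 4 arrays that stood apart (0.0639). Leaving out replicate 2 or 3 of 3 months, or replicate 1 or 2 of 29 months, also ended the call, and the adjusted p then reached 0.0709. Its log2 change stayed between -0.63 and -0.48 in all of these and in the other alternatives run.

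Phka1 encodes the muscle alpha subunit of phosphorylase kinase, a regulatory subunit. Its mean level was 7.05 ± 0.16 (SD, n = 4) at 3 months, 7.06 ± 0.15 at 15 months, 6.86 ± 0.23 at 24 months and 6.94 ± 0.13 at 29 months. Between 3 and 29 months the difference was -0.12 (95% interval -0.39 to 0.15, adjusted p = 0.589), and the arrays of every pair of neighbouring ages overlapped. The lower end of the interval is a fall of 0.39, so a fall of that size was within the error of these arrays.

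Among the synthesis genes, Gyg encodes glycogenin, the protein primer of a glycogen particle. Its mean level was 7.51 ± 0.12 (SD, n = 4) at 3 months, 7.61 ± 0.11 at 15 months, 7.42 ± 0.22 at 24 months and 7.40 ± 0.27 at 29 months. The difference between 29 and 3 months was -0.11 (95% interval -0.40 to 0.19, adjusted p = 0.662), and -0.06 on its second probe.

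Ugp2 encodes UDP-glucose pyrophosphorylase, which makes the sugar donor for glycogen synthase. Its level was 6.50, 6.58, 6.34 and 6.54 at 3 months and 6.57, 6.50, 6.72 and 6.67 at 15 months. At 24 months it was 6.98, 6.48, 6.75 and 6.30, and at 29 months 6.41, 7.20, 6.96 and 6.99. On 3 of the 4 arrays of 29 months it lay above all arrays of 3 months, and replicate 1 lay within them. The difference at 29 against 3 months was 0.40 (SE 0.16, 95% interval 0.05 to 0.75, adjusted p = 0.12) and on the second probe 0.46. It passed without 29 months replicate 1 (log2 change 0.56, adjusted p = 0.0182).

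Gys1 encodes the muscle glycogen synthase, which lengthens the glucose chains. Its level was 5.90, 6.03, 5.97 and 6.12 at 3 months and 6.03, 6.12, 6.12 and 6.21 at 15 months. It was 6.61, 6.36, 6.37 and 5.95 at 24 months and 5.74, 6.58, 6.39 and 6.29 at 29 months. At 15, at 24 and at 29 months 3 of 4 arrays lay above all arrays of 3 months, on some arrays of 15 months by a very narrow margin. The exceptions were replicate 1 at 15 months, replicate 4 at 24 months and replicate 1 at 29 months. Those of 24 and 29 months were among the arrays that stood apart. The difference was 0.32 at 24 against 3 months (SE 0.16, adjusted p = 0.278) and 0.25 at 29 months (SE 0.16, adjusted p = 0.344). The second probe gave 0.18 and 0.10.

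Gbe1 encodes the branching enzyme, which makes the branch points that give glycogen its many chain ends. Its level was 3.79, 3.86, 3.47 and 4.03 at 3 months and 4.05, 3.96, 4.25 and 4.46 at 15 months. It was 5.27, 4.27, 4.34 and 4.54 at 24 months and 4.07, 5.01, 4.30 and 4.47 at 29 months. All arrays of 24 and 29 months lay above all arrays of 3 months, by a narrow margin at 29 months, and those of 15 months overlapped both. The difference was 0.82 at 24 against 3 months (SE 0.23, 1.76-fold, adjusted p = 0.0566) and 0.67 at 29 months (SE 0.23, 1.59-fold, adjusted p = 0.0635), and neither passed. Both calls were made with normexp background correction (adjusted p = 0.0186 and 0.0298) and with array weights (0.0345 and 0.0284). In each comparison 7 of 10 alternatives did not call Gbe1, nor did 14 of 16 fits without 1 array. The adjusted p by limma then reached 0.186 at 24 months and 0.167 at 29 months.

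**Figure D2:**
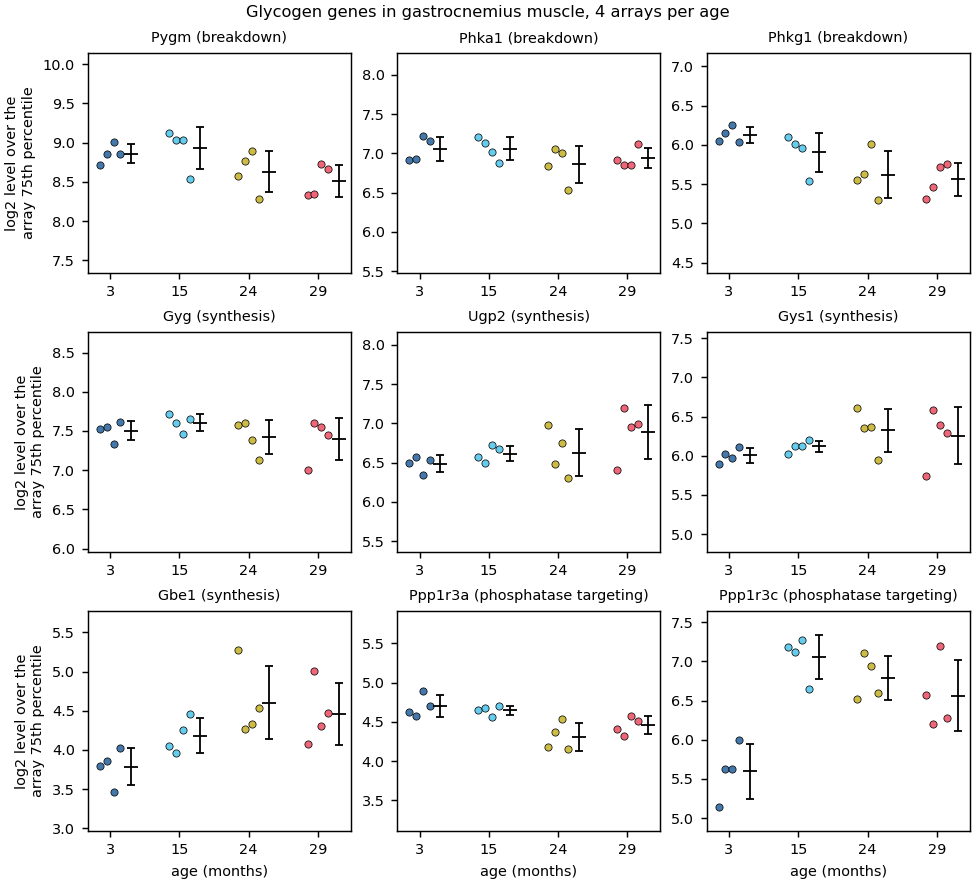
Log2 level of each of the 9 genes (panels) on each array against age in months, with 4 arrays per age as points and the mean and SD of each age. Ppp1r3c shows the 4 arrays of 3 months, at 5.14 to 6.00, below all arrays of the other ages, while the arrays of 24 and 29 months overlap for all 9 genes.

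Of the phosphatase-targeting genes, Ppp1r3c encodes a subunit known as protein targeting to glycogen, which brings protein phosphatase 1 together with glycogen synthase and phosphorylase. Its level was 5.14, 5.62, 5.62 and 6.00 at 3 months and 7.18, 7.12, 7.27 and 6.64 at 15 months. It was 6.52, 7.11, 6.93 and 6.60 at 24 months and 6.57, 6.20, 7.20 and 6.27 at 29 months. Every array of the 3 later ages lay above every array of 3 months. The means ran in the order 15, 24, 29 and 3 months, at 7.05, 6.79, 6.56 and 5.60, and of the neighbours in that order only 29 and 3 months did not overlap.

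At 15 against 3 months, within slide 1, the difference in Ppp1r3c was 1.46 (SE 0.23, 95% interval 0.96 to 1.95, adjusted p = 0.0073). It was 1.19 at 24 against 3 months (SE 0.23, adjusted p = 0.0104) and 0.96 at 29 against 3 months (SE 0.23, adjusted p = 0.0123). Within slide 2 the difference between 29 and 24 months was -0.23 (SE 0.23, 95% interval -0.72 to 0.26, adjusted p = 0.701). The calls at 15 and 24 months held under the 11 alternatives and without each of the 16 arrays in turn. The call at 29 months was lost without the 4 arrays that stood apart, where the log2 change was 0.64 (adjusted p = 0.0804).

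The step in Ppp1r3c from 24 to 29 months differed from its step from 3 to 15 months by -1.69 (SE 0.33, adjusted p = 0.033 by limma), where 0.67% of all genes, 146, passed this test. That count was 50 with no filter on dim probes and 963 with the deposited values. This comparison was added after the values were seen, and its steps span unlike numbers of months, so it does not compare rates. The call was lost with arrays scaled to their median, with no filter on dim probes, and without any 1 of 9 arrays: replicates 1, 2 and 3 at 3 months, replicates 1, 2 and 3 at 15 months, replicates 2 and 3 at 24 months and replicate 4 at 29 months. In these 11 fits the adjusted p was 0.0527 to 0.0838 and in all fits the difference lay between -1.95 and -1.54. On the line in age within slides the slope of Ppp1r3c was 0.097 per month (adjusted p = 0.0708). This slope pools the differences of 1.46 within slide 1 and -0.23 within slide 2, so it does not describe a steady rise.

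The adipocyte markers, of which 7 of 8 were tested, had a median log2 change of 1.37 at 15 against 3 months and 1.58 at 24 months. By limma 0 of 7 were called, where 0.978% and 4.66% of all genes were. An unadjusted p under 0.05 was held by 1 and 4 of the 7, and by 2335 and 4618 of all 21777 genes. The median of the adipocyte markers was -0.20 at 29 against 3 months, where Ppp1r3c was 0.96 higher. Their summed level, on a linear scale in units of the array's 75th percentile, was 73.6 to 102 at 3 months, 66.1 to 100.5 at 15 months, 48.5 to 302.5 at 24 months and 67.1 to 160.5 at 29 months. Such a sum weighs the brightest marker most, here Fabp4, which had a mean of 6.10 at 3 months and 5.83 at 15 months. Of the 7 changes 6 were above 0 at 15 and at 24 months, and Fabp4 was the 1 below. Lep was not well above background on any array of 3 or 29 months. Their part in the difference was not tested.

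Ppp1r3a encodes the muscle glycogen-targeting subunit, which anchors protein phosphatase 1 to glycogen and to the sarcoplasmic reticulum. Its level was 4.63, 4.57, 4.90 and 4.71 at 3 months and 4.65, 4.67, 4.57 and 4.70 at 15 months. It was 4.18, 4.37, 4.53 and 4.15 at 24 months and 4.42, 4.32, 4.58 and 4.52 at 29 months. All arrays of 24 months lay below all arrays of 3 months, by a margin narrower than the spread within either age, and the highest array of 29 months reached the lowest of 3 months. The difference at 24 against 3 months was -0.39 (SE 0.10, adjusted p = 0.0467). By 29 months it was -0.24 (SE 0.10, adjusted p = 0.142).

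The call of Ppp1r3a lay just inside the threshold. It was lost under 9 of the 11 alternatives, among them both scalings tried (adjusted p = 0.0979 with the median and 0.0659 with quantile normalization). It was lost too without any 1 of 12 of the 16 arrays, namely all 8 of 3 and 15 months, replicates 1, 2 and 4 at 24 months and replicate 4 at 29 months. In the fits that lost it the adjusted p was 0.0557 to 0.167, and the log2 change was -0.53 to -0.31 over all fits. The targeting subunits among the 9 genes had changes of opposite sign at 24 months, 1.19 for Ppp1r3c and -0.39 for Ppp1r3a. Further targeting subunits tested outside the 9 genes changed by -0.30 (Ppp1r3b), -0.42 (Ppp1r3d) and 0.08 (Ppp1r3f), and none of these was called.

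Counted by overlap, 1 of the 9 genes had all arrays of 15 months above all of 3 months, where 12.1% of all genes did not overlap in either direction. At 24 against 3 months 4 of 9 did not overlap, Gbe1 and Ppp1r3c above and Phkg1 and Ppp1r3a below, where 14.8% of all genes did not. At 29 against 3 months 3 of 9 did not overlap, Gbe1 and Ppp1r3c above and Phkg1 below, where 19.7% of all genes did not. At 29 against 24 months none of the 9 was without overlap, where 7.04% of all genes were.

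Which genes were called at 29 months changed with the 4 arrays that stood apart. Without them 3 of the 9 genes were called at 29 against 3 months, all of them synthesis genes: Ugp2 at 0.61 (adjusted p = 0.0061), Gys1 at 0.43 (adjusted p = 0.0266) and Gbe1 at 0.95 (adjusted p = 0.0309). Phkg1, at -0.52, and Ppp1r3c, at 0.64, were then not called. At 24 against 3 months Ppp1r3c, at 1.13 (adjusted p = 0.0264), and Gys1, at 0.49 (adjusted p = 0.0452), were called without them, and Ppp1r3a, at -0.34 (adjusted p = 0.167), was not. Each of the older ages then had 2 arrays. The weights that set the 4 arrays apart were estimated from these same data, so the adjusted p of this fit are descriptions only. Among the arrays left out, 29 months replicate 1 was the lowest of its age for all 4 synthesis genes.

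The spread between samples of an age was shared by several of the 9 genes. At 29 months replicate 1 had the lowest level of 6 genes, among them all 4 synthesis genes, and the highest of none, whereas replicate 2 had the highest level of all 4 synthesis genes. At 24 months replicate 4 had the lowest level of 7 of the 9 genes and the highest of none. At 15 months replicate 4 was lowest for Pygm, Phka1, Phkg1 and Ppp1r3c and highest for Gys1, Gbe1 and Ppp1r3a.

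These samples also stood out in marker lists. At 29 months replicate 1 had a summed level of T and NK cell markers of 73.9 against 29.7 to 30.3 on the other 3 arrays, and the lowest summed level of the 8 skeletal muscle markers of that age, 4326 against 5618 to 6188. Its summed level of B and plasma cell markers was 10.5 against 0.605 to 1.54. At 24 months replicate 4 had a summed level of adipocyte markers of 302.5 against 48.5 to 82.9, and of macrophage markers 242 against 106.9 to 175.7. Its summed level of B and plasma cell markers was 7.87 against 0.72 to 1.46, and that of the skeletal muscle markers was the lowest of its age, 5198 against 5834 to 5948. At 15 months replicate 4 had a summed level of slow fibre markers of 2616 against 983 to 1088. These sums weigh the brightest markers most, which by mean level were Fabp4 in the adipocyte list and Itgam in the macrophage list. The part of the marker lists in the values of the glycogen genes was not tested.

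**Figure D3:**
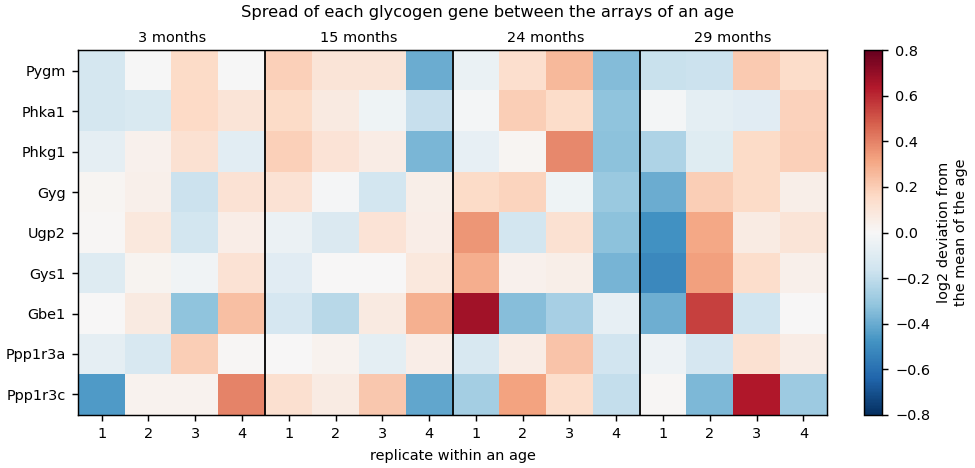
Deviation of the log2 level of each of the 9 genes (rows) from the mean of its age, for each of the 16 arrays (columns). Replicate 4 at 24 months is below its age mean for all 9 genes, and replicates 1 and 2 at 29 months differ in sign for the synthesis genes Gyg, Ugp2, Gys1 and Gbe1.

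Slow fibre markers were higher in median at the older ages. The median log2 change of 8 slow fibre markers was 0.84 at 24 against 3 months and 1.04 at 29 months. By limma 0 of 8 were called and 2 and 5 had an unadjusted p under 0.05, where 21.2% and 28.7% of all genes did. The summed level of the slow fibre markers ranged from 537 to 1828 at 3 months and from 1137 to 2688 at 29 months. The median of 10 fast fibre markers was -0.03 and -0.01 in the same comparisons, with 0 of 10 called and 1 and 0 at an unadjusted p under 0.05. Fibroblast markers had a median of -0.89 at 29 against 3 months with 3 of 8 called, all lower, where 7.66% of all genes were called lower. The part of these markers in the changes of Phkg1, Ppp1r3a, Ppp1r3c and Gbe1 was not tested.

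Beyond the 9 genes, 28 other genes of glycogen metabolism and its control were listed and 24 were tested. Gys2, Pgm2, Ppp1r3e and Ppp1r3g were left out because no age had them well above background on each of its 4 arrays. Of the 24, 5 were called at 29 against 3 months, 1 higher and 4 lower, where 14.6% of all genes were called, 6.99% higher and 7.66% lower. Of the 24 changes 19 were below 0, with a median of -0.21 beside -0.04 over all genes, and the median lay between -0.26 and -0.16 under the alternatives run. The calls varied more: 0 were higher and 1 lower with arrays scaled to their median, 2 and 8 with normexp background correction, and 2 and 7 with the deposited values, where 23 genes could be tested. With no filter on dim probes, without the 4 arrays that stood apart, and without any 1 of replicates 2 and 3 at 3 months and replicate 1 at 29 months, 1 was higher and 2 were lower.

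Calm2, called lower, encodes calmodulin, which is also the delta subunit of phosphorylase kinase. It read 6.34, 6.27, 6.52 and 6.32 at 3 months and 5.28, 5.57, 4.80 and 5.69 at 29 months, with no overlap, and the difference was -1.03 (SE 0.16, adjusted p = 0.0007). Whether its probe also reads related transcripts was not tested.

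Pgm1 encodes phosphoglucomutase, which links glycogen to glycolysis. It read 8.96, 9.11, 9.27 and 9.14 at 3 months and 8.20, 8.48, 8.47 and 8.75 at 29 months, a difference of -0.64 (SE 0.15, adjusted p = 0.0115). The call was lost with arrays scaled to their median (adjusted p = 0.0794) and without the 4 arrays that stood apart (0.0871). Ppp1cc, a catalytic subunit of protein phosphatase 1, differed by -0.51 (SE 0.14, adjusted p = 0.0222), lost in 7 fits with adjusted p up to 0.104.

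Prkag3 encodes the muscle gamma subunit of AMP-activated protein kinase, which binds glycogen and phosphorylates glycogen synthase. It read 2.78, 2.66, 2.85 and 2.39 at 3 months and 1.68, 1.39, 2.12 and 2.12 at 29 months. The difference was -0.85 (SE 0.24, adjusted p = 0.0305), lost in 8 fits with adjusted p up to 0.0847. Arrays whose removal ended the call of Prkag3 were replicates 1, 2 and 3 at 3 months and replicates 1 and 2 at 29 months, and for Ppp1cc replicates 2, 3 and 4 at 3 months and replicate 1 at 29 months.

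The gene called higher was Gaa, the lysosomal acid alpha-glucosidase, which degrades glycogen inside lysosomes. It read 6.94, 6.86, 7.03 and 6.88 at 3 months and 7.09, 7.41, 7.48 and 7.31 at 29 months, with no overlap and a difference of 0.39 (SE 0.09, adjusted p = 0.0127). With the mean over its probes in place of the brightest probe the call was lost (adjusted p = 0.31), as it was with arrays scaled to their median (0.174) and in a fit of these ages only (0.072).

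**Figure D4:**
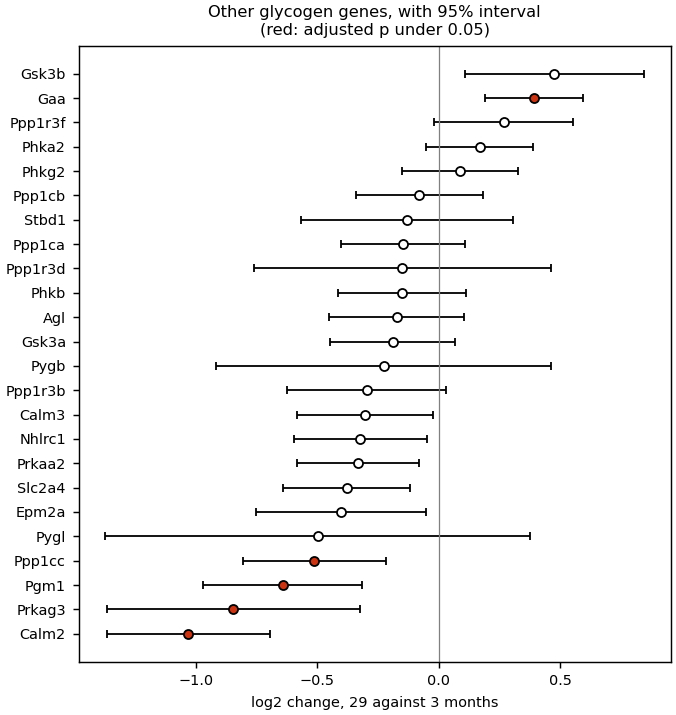
Log2 change at 29 against 3 months of the 24 other glycogen genes tested, one per row, ordered by their change. Points are limma estimates, bars are 95% confidence intervals and red points have an adjusted p under 0.05; 19 of the 24 points lie left of 0, and Calm2, at -1.03, is lowest.

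In the other comparisons none of the 24 genes was called by limma. At 15 against 3 months 2 had an unadjusted p under 0.05, where 2335 of all 21777 genes did. At 24 against 3 months 4 had such a p, where 21.2% of all genes did. At 29 against 24 months 4 did and on the line in age 3 did, where 15.3% and 10.9% of all genes did. The smallest p values belonged to Ppp1r3f, a further targeting subunit, and Calm2 at 15 against 3 months (0.35 and -0.39, adjusted p = 0.319 and 0.357). At 24 against 3 months they belonged to Prkaa2, a catalytic subunit of AMP-activated protein kinase, and Ppp1cc (-0.37 and -0.42, adjusted p = 0.086 and 0.0959). At 29 against 24 months they belonged to Calm2 and Prkag3 (-0.58 and -0.80, adjusted p = 0.0791 and 0.117). On the line in age they belonged to Calm2 and Ppp1r3f (-0.044 and 0.030 per month, adjusted p = 0.188 and 0.226).

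The genes with a pattern most like that of each called gene were found by Pearson's r over the 16 arrays, among 13354 genes with a RefSeq symbol. The arrays share age, slide and scaling, so these values are descriptions. Phkg1 was most like Gpd1, the cytosolic glycerol 3-phosphate dehydrogenase (r = 0.974), then Klhl31 (0.946). Gpd1 had means of 8.02, 7.71, 7.45 and 7.31 at 3, 15, 24 and 29 months. Ppp1r3c was most like Sdk1 (0.941), Odf3l2 (0.92) and Tfcp2l1 (0.914), of which Odf3l2 had means of 0.91, 3.55, 2.86 and 2.96. Ppp1r3a was most like Arsk (0.919), Acvr2a (0.876) and Atg12 (0.855), of which Acvr2a had means of 0.90, 0.68, 0.28 and 0.44.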

How the data were processed

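Per the file headers, the deposited scanner files hold spot brightness as intensity, made with Feature Extraction 10.7.1.1, background-subtracted and not normalized between arrays. The authors' deposited table holds log2 values, the steps behind them not given in the sources used here. It matched the scanner values by feature number (r 0.985 to 0.993 across probes) and not by probe name (-0.005 to 0.0183), had column medians of 4.55 to 4.69, and served as an alternative only.

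An array held 62976 spots, of which 59305 were no controls. Spots that carried outlier flags, which are marks of the deposited scanner files, were left out, which dropped 93 probes, and spots of 1 probe were averaged, leaving 55588 probes. From the log2 signals of an array its 75th percentile was subtracted. Probes were kept where each of the 4 arrays of some age had them well above background (28435), and a gene took its kept probe of highest mean. Names came from the RefSeq table of GRCm38.p6. The headers name mm9 as the design build, so no coordinates of probes are given. Age means over all 16 arrays were fitted in R 4.3.3 by limma 3.58.1, two-sided, as was a linear trend over months that took slide as its block, with Benjamini-Hochberg adjustment over the genes tested. The test was checked on simulated data.

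All 9 members are named with their values. Of the other glycogen genes, those called are named, at most the 5 of smallest p per comparison, and the 2 of smallest p where none was. Calm3, Ppp1r3b and Ppp1r3d are named besides, as genes of the same kind as those described. For each called member the 3 genes of highest Pearson correlation are named. A further gene that these rules would name is not reported here. The members and lists were chosen with earlier results of these data known. The promoter motifs were chosen for this description. The alternatives were median scaling, quantile normalization, normexp, the deposited values, no filter, a mean of the probes of a gene, fits restricted to the ages compared, a replicate block, eBayes with trend and robust, array weights, leaving out the 4 arrays that stood apart and leaving out each array. The scanner files used here give median and not mean spot signals, so normexp (offset 50) used medians. The number of arrays limits the precision.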

Additional observations from a re-analysis of the deposited data

Results flagged for a closer look

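In an age of 4 arrays, 1 array lay far from the other 3 for 3 genes, out of 64 groups of gene and age checked, where chance alone marks about 5% of groups. Pygm read 8.54 on 15 months replicate 4, while the others read 9.03 to 9.13. Calm2 read 6.14 on 24 months replicate 3, against 5.80 to 5.85. Ppp1cc read 5.78 on 3 months replicate 1, against 5.94 to 5.97. The step of Ppp1r3c from 24 to 29 months differed from its step from 3 to 15 months by -1.69 on the log2 scale, by a test of the difference itself. That test was added after the values were seen, and its call was lost in 11 fits (adjusted p by limma 0.0527 to 0.0838). The steps span unlike numbers of months.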

How the results depend on the processing

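No result changed sign while called. The count of the 9 genes called at 15 against 3 months stayed at 1 and that at 29 against 24 months at 0 under all alternatives. At 24 against 3 months it was 1 with median scaling, with the deposited values (8 of the 9 genes, without Gbe1), with no filter, with the ages compared only and with the replicate block, and 1 to 3 when arrays were left out in turn. At 29 against 3 months it was 1 with median scaling and with no filter, 4 with normexp and with array weights, and 1 to 3 when arrays were left out. On the line in age it was 1 with array weights and 1 without the 4 arrays that stood apart, each time Ppp1r3c, and 0 to 1 when arrays were left out. The causes were not tested. Leaving out arrays or fitting fewer ages also leaves fewer samples, and counts under these settings moved in both directions.

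Replicate numbers in the labels followed the column on the slide and did not pair the samples: same-numbered arrays of different ages deviated together (r over 0.1) in 6 of 24 pairs, with r from -0.47 to 0.30, and 5 of 16 arrays correlated best with their own number. With the replicate block, all genes called numbered 258 against 417 at 29 against 24 months and 87 against 138 on the line.

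Counts over all genes moved most with the following settings. At 15 against 3 months 213 became 89 with median scaling, 106 with no filter, 721 with the ages compared only, 1113 with array weights, 802 without the 4 arrays and 86 to 279 with arrays left out in turn. At 24 against 3 months 1014 became 512, 470 and 558 with the first 3 of these, and 453 to 1282 with arrays left out. At 29 against 3 months 3190 became 1537 with median scaling and 1983 with the ages compared only. At 29 against 24 months 417 became 249, 153 and 9 with median scaling, no filter and the ages compared only, 980 with normexp, 1097 with the deposited values, 229 with array weights, 52 without the 4 arrays and 153 to 562 with arrays left out. On the line 138 became 68, 66, 1092 and 585 with median scaling, no filter, array weights and without the 4 arrays, and 52 to 202 with arrays left out. For the difference between the steps within slides 146 became 55 with median scaling, 50 with no filter, 591 with normexp, 963 with the deposited values, 266 with array weights and 55 to 165 with arrays left out. The split of higher and lower calls, 320 and 97 at 29 against 24 months, became 226 and 23 with median scaling, 580 and 400 with normexp and 663 and 434 with the deposited values. At 15 against 3 months 151 and 62 became 165 and 119 with normexp and 186 and 128 with the deposited values, and on the line 86 and 52 became 51 and 17 with median scaling. Median scaling moved the median change of all genes at 24 against 3 months from -0.02 to -0.15.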
